A study of Mus musculus with 6 samples.

Results

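Transcripts that mark the endothelial cells of the liver sinusoid were compared between 3 Flox and 3 HepKO mouse liver samples after an acetaminophen overdose. Each sample is called a liver here, although the labels do not say that each came from a separate animal. The set holds 10 genes, taken by symbol from a deposited table of 28476 genes: Stab1, Stab2, Lyve1, Clec4g, Fcgr2b, Kdr, Pecam1, Cdh5, Angpt2 and Apln. All 10 were matched, each to 1 row. The values are FPKM, fragment counts scaled to transcript length and to the mapped fragments of each library. All mice were C57BL/6, were fasted, and received 300 mg/kg acetaminophen (APAP) by intraperitoneal injection, with livers collected 24 h later. The controls carry the genotype label Flox and the other mice the label Nedd4 HepKO, a hepatocyte knockout of the ubiquitin ligase gene Nedd4. Cre driver, age and sex were not given in the sources used here. Each difference is between 2 injured groups, and uninjured livers are not analysed here.

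Sinusoidal endothelial cells line the liver's smallest vessels. They are perforated by open pores, lack an organised basement membrane, and clear waste molecules from blood through scavenger receptors. Acetaminophen injury is known to damage these cells early, next to the dying hepatocytes around the central vein. Regrowth of the vessels is known to depend on vascular endothelial growth factor (VEGF), read by the receptor that Kdr encodes, and on angiopoietin-2, which alters signalling of the endothelial receptor TIE2.

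The liver libraries were dominated by hepatocyte transcripts, with Alb (albumin) the most abundant gene. HepKO replicate 1 stood apart in the share of FPKM from the mitochondrial genome, 24.6% against 16.7% to 18.3% in the other 5 libraries. Nedd4, the targeted gene, had 2.18, 2.59 and 2.23 FPKM in Flox mice and 0.618, 0.666 and 0.565 FPKM in HepKO mice, lower in every HepKO library (log2 fold change -1.04, limma adjusted p = 0.0015). Read depth is unknown, because the values are FPKM.

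Of the 10 transcripts, 5 rose in HepKO livers (Cdh5, Angpt2, Lyve1, Pecam1 and Stab1), 1 fell (Kdr) and 4 did not pass (Clec4g, Apln, Stab2 and Fcgr2b), in limma on log2(FPKM + 1) with Benjamini-Hochberg adjustment over 12712 genes at a threshold of 0.05. Over all of those genes 20.3% passed, 9.33% (1186 genes) higher and 1397 genes lower. The 10, chosen with earlier results of these data known, had a median log2 fold change of 0.55, against -0.06 over all genes tested. Apln passed the filter on low values (a mean of at least 0.5 FPKM) only through its HepKO level, and over the other 9 the median was 0.50. The groups did not overlap for 7 of the 10, against 42.4% of all genes tested. The calls of Stab1 and Pecam1 were the less firm ones. With 1 library left out, 3 to 5 of the 10 rose and 1 or 2 fell. The rises numbered 3 without Flox replicate 1, 2 or 3 or HepKO replicate 2, and 4 without HepKO replicate 1. The falls numbered 2 without Flox replicate 2. In bulk liver RNA, fewer cells of a type and less RNA per cell cannot be told apart.

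**Figure D1:**
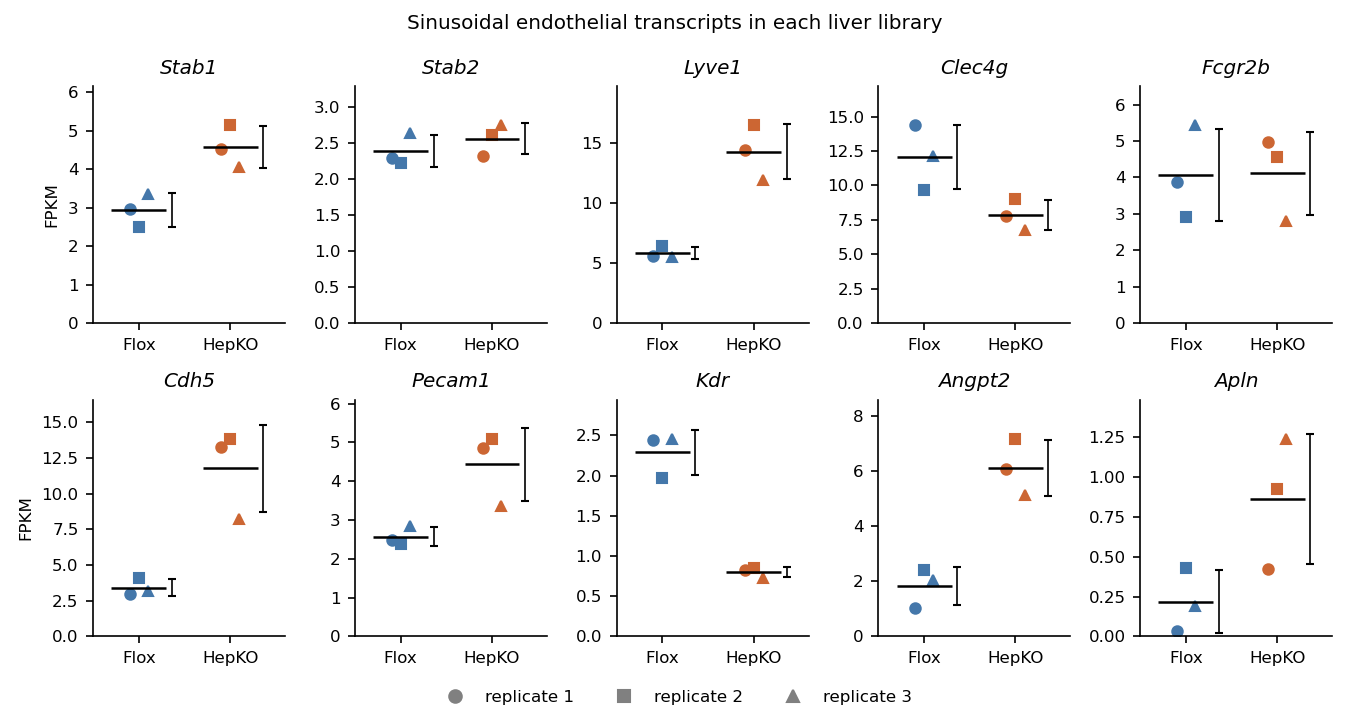
FPKM of each of the 10 transcripts (y axes, from 0, scaled per panel) in the 3 Flox and 3 HepKO livers; symbols mark the replicate, black lines the group mean and bars beside them the SD (n = 3). Cdh5, Lyve1, Angpt2, Pecam1 and Stab1 are higher in every HepKO library, Kdr and Clec4g lower in every one, and Stab2, Fcgr2b and Apln overlap.

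RefSeq promoter sequences (GRCm38.p6) were held for 6 of the 10 genes (Apln, Clec4g, Fcgr2b, Kdr, Stab1 and Stab2); Lyve1, Pecam1, Cdh5 and Angpt2 were not matched. Printed here are the 250 bases before the start that RefSeq gives for Kdr, which fell, and of the related scavenger receptor genes Stab1, which rose, and Stab2, which did not pass. Capitals mark matches, on either strand, to any of 6 short motifs. The AP-1 motif was spelled TGANTCA, and the core of the hypoxia response element ACGTG. The forkhead motif was spelled GTAAACA, and the GATA motif of blood and vessel genes GATAAG. The ETS motif of many endothelial genes was spelled CAGGAA, and the KLF motif of flow-responsive genes CCACCC. The motifs were searched separately, and matches of different motifs could overlap. The deposited gene coordinates of Kdr and Stab2 reach into these windows, so the 2 sources place their starts differently.
Kdr (chr5:75978456-75978705, minus strand): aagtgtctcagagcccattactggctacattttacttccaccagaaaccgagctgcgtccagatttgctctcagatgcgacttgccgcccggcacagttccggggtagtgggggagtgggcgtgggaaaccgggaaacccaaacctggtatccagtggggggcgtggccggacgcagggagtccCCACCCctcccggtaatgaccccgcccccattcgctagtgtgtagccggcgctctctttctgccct
Stab1 (chr14:31168642-31168891, minus strand): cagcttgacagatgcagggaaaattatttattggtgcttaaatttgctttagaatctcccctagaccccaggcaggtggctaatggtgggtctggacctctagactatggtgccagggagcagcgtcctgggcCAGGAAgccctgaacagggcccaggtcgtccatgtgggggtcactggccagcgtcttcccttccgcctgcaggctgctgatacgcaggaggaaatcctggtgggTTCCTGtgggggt
Stab2 (chr10:87007943-87008192, minus strand): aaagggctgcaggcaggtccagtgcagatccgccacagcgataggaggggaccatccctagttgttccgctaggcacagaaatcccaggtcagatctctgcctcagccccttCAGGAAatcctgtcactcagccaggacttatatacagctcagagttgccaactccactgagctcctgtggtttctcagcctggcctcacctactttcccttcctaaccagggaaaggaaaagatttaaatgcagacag
The Kdr window held 1 KLF match and the Stab1 and Stab2 windows 2 and 1 ETS matches. ETS matches were present in 25.7% and KLF matches in 28.1% of the 32851 windows of this length. None of the 6 windows held an AP-1, hypoxia, forkhead or GATA match, which occurred in 6.75%, 16.6%, 3.17% and 6.55% of all windows. A match describes letters only. The Kdr window was 61.6% G or C, against 57.2% for Stab1, 53.2% for Stab2 and a median of 52.4% over all windows.

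Scavenger receptors, the transcripts closest to the clearance function of these cells, moved unequally. Lyve1, a hyaluronan receptor of sinusoidal and lymphatic endothelium (ENSMUSG00000030787, chromosome 7, 110850607 to 110863239), had 5.59, 6.37 and 5.44 FPKM in Flox mice and 14.4, 16.4 and 11.9 FPKM in HepKO mice. The lowest HepKO value was above the highest Flox value. Lyve1 was 2.45-fold higher (5.80 ± 0.50 against 14.2 ± 2.26 FPKM, SD, n = 3; log2 fold change 1.16, SE 0.14, limma adjusted p = 0.0027), and passed whichever library was left out. Stab1, which encodes stabilin-1, a scavenger receptor shared with some macrophages (ENSMUSG00000042286, chromosome 14, 31139013 to 31168641), had 2.96, 2.50 and 3.36 FPKM in Flox mice and 4.54, 5.14 and 4.06 FPKM in HepKO mice. The groups did not overlap, and the 1.56-fold difference passed narrowly (log2 fold change 0.50, SE 0.13, limma adjusted p = 0.037). That call held without HepKO replicate 3 (adjusted p = 0.043). It was lost without any other single library, with adjusted p of 0.073, 0.11 and 0.053 without Flox replicate 1, 2 or 3 and of 0.090 and 0.12 without HepKO replicate 1 or 2.

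Stab2 encodes stabilin-2, the main hyaluronan clearance receptor of the sinusoid (ENSMUSG00000035459, chromosome 10, 86841198 to 87008025). It had 2.30, 2.23 and 2.64 FPKM in Flox mice and 2.32, 2.61 and 2.74 FPKM in HepKO mice. The 2 groups covered nearly the same range. Its log2 fold change of 0.07 did not pass (limma adjusted p = 0.67), and the 95% interval of -0.18 to 0.32 leaves room for small differences in either direction. Stab2 was the member with the smallest spread over the 6 libraries. Within each library, the ratio of Lyve1 to Stab2 was 2.06 to 2.86 in Flox and 4.34 to 6.30 in HepKO livers. The ratio of Stab1 to Stab2 was 1.12 to 1.29 in Flox and 1.48 to 1.97 in HepKO livers. Such ratios are free of the scaling between libraries.

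Clec4g encodes LSECtin, a C-type lectin of sinusoidal cells (ENSMUSG00000074491, chromosome 8, 3707064 to 3718653). It was the most abundant of the 10 in every Flox library, with 14.4, 9.69 and 12.1 FPKM. The HepKO livers had 7.80, 8.99 and 6.77 FPKM, all under the lowest Flox value. The difference of 1.54-fold missed the threshold (log2 fold change -0.55, SE 0.17, 95% interval -0.95 to -0.16, limma adjusted p = 0.058). It passed without Flox replicate 2 (adjusted p = 0.049) and when every library was scaled to the same total FPKM (0.045). Its deposited gene ends before the promoter window RefSeq gives, so the 2 sources place its start differently. The ratio of Lyve1 to Clec4g was 0.389, 0.657 and 0.449 in the Flox and 1.84, 1.83 and 1.76 in the HepKO livers. Lyve1 thus stood below Clec4g in every Flox library and above it in every HepKO library.

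Fcgr2b, the inhibitory Fc receptor that takes up immune complexes in the sinusoid (ENSMUSG00000026656, chromosome 1, 170958617 to 170976547), had 3.87, 2.91 and 5.43 FPKM in Flox mice and 4.96, 4.57 and 2.80 FPKM in HepKO mice. Both groups spread widely and overlapped throughout. The log2 fold change was 0.01 with a 95% interval of -0.55 to 0.58 (limma adjusted p = 0.97), so neither a rise nor a fall was detectable. Its longest transcript shares a stretch of 512 bases at 96.3% identity with the activating receptor gene Fcgr3. Fcgr3 itself rose from 2.06 to 7.64 FPKM, 3.70-fold (limma adjusted p = 0.0040). How reads of the shared stretch were divided was not given in the sources used here, so the level of Fcgr2b is uncertain.

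Junction proteins hold neighbouring endothelial cells together, and both members of that class rose. Cdh5, which encodes VE-cadherin, the adhesion molecule of endothelial junctions (ENSMUSG00000031871, chromosome 8, 104101625 to 104144511), had 2.98, 4.12 and 3.17 FPKM in Flox mice and 13.2, 13.8 and 8.25 FPKM in HepKO mice. Each HepKO value was at least 8.25 FPKM and each Flox value at most 4.12 FPKM. Cdh5 was 3.44-fold higher (3.42 ± 0.61 against 11.8 ± 3.06 FPKM, SD, n = 3; log2 fold change 1.51, SE 0.21, limma adjusted p = 0.0045), and its adjusted p stayed between 0.0030 and 0.021 with 1 library left out. Pecam1, which encodes CD31 of endothelial junctions, platelets and leukocytes (ENSMUSG00000020717, chromosome 11, 106654217 to 106750628), had 2.48, 2.39 and 2.86 FPKM in Flox mice and 4.87, 5.09 and 3.36 FPKM in HepKO mice. The 1.73-fold rise passed (log2 fold change 0.59, SE 0.15, limma adjusted p = 0.037) and was lost without any single library other than HepKO replicate 3. The adjusted p was then 0.084, 0.11 and 0.072 without Flox replicate 1, 2 or 3 and 0.11 without HepKO replicate 1 or 2. The ratio of Cdh5 to Pecam1 was 1.11 to 1.73 in Flox and 2.45 to 2.72 in HepKO livers, so the 2 junction transcripts did not change in equal measure.

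Kdr, which encodes VEGF receptor 2, the main signalling receptor for VEGF-A (ENSMUSG00000062960, chromosome 5, 75932827 to 75978458), was the member that fell. It had 2.45, 1.97 and 2.46 FPKM in Flox mice and 0.832, 0.850 and 0.733 FPKM in HepKO mice. The 3 HepKO values lay close together, all under 1 FPKM and far from the Flox values. Kdr was 2.85-fold lower (2.29 ± 0.28 against 0.805 ± 0.063 FPKM, SD, n = 3; log2 fold change -0.86, SE 0.11, limma adjusted p = 0.0033), and its adjusted p stayed between 0.010 and 0.017 with 1 library left out. Ratios to partner transcripts were taken of FPKM without the added 1, so their log2 values do not compare directly with -0.86. With 0.1 added in place of 1, the log2 fold change of Kdr was -1.40. The ratio of Cdh5 to Kdr was 1.22, 2.09 and 1.29 in the Flox livers and 15.9, 16.3 and 11.3 in the HepKO livers. Divided by the mean of Cdh5 and Pecam1 in the same library, Kdr was 0.772 ± 0.150 in Flox mice and 0.103 ± 0.020 in HepKO mice (SD, n = 3), a log2 ratio of -2.91, but both of those denominators rose. Divided by the mean FPKM of 26 other pan-endothelial genes, it was 0.694 ± 0.121 and 0.224 ± 0.0070, a log2 ratio of -1.63. The abundant genes Aqp1, S1pr1 and Eng weigh most in that mean.

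**Figure D2:**
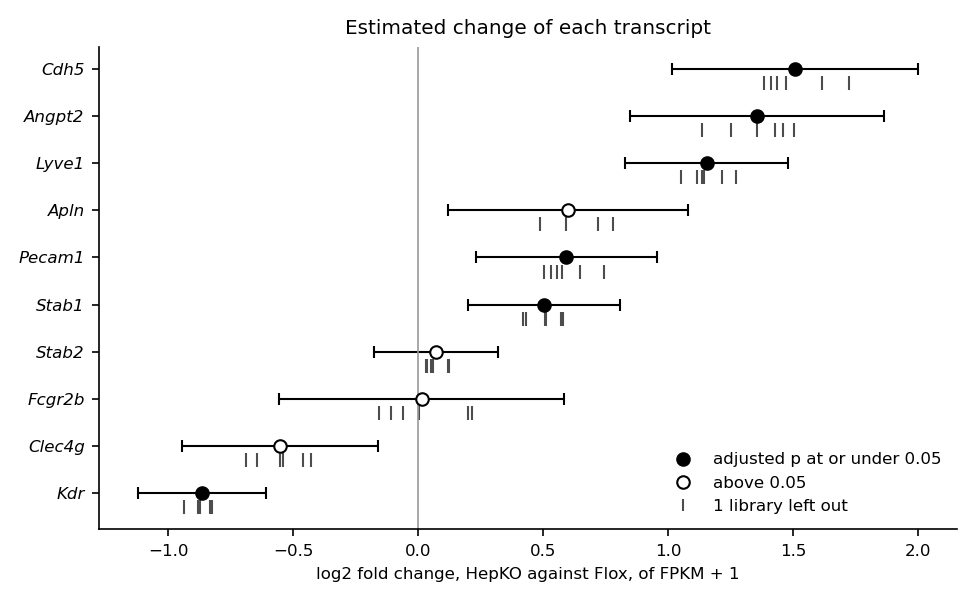
Log2 fold change of each transcript, HepKO against Flox, on the log2(FPKM + 1) scale (x axis) with its 95% limma interval; filled points have an adjusted p at or under 0.05, and grey ticks give the value with 1 library left out. Cdh5, Angpt2 and Lyve1 lie above 1 and Kdr at -0.86, while the ticks of Fcgr2b fall on both sides of 0.

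The 2 secreted ligands of the set differed in level and in the firmness of their difference. Angpt2, which encodes angiopoietin-2, released by activated endothelium (ENSMUSG00000031465, chromosome 8, 18690263 to 18741562), had 1.04, 2.40 and 2.06 FPKM in Flox mice and 6.07, 7.17 and 5.14 FPKM in HepKO mice. The groups were well apart, although the Flox livers differed among themselves. Angpt2 was 3.35-fold higher (log2 fold change 1.36, SE 0.21, limma adjusted p = 0.0074), with an adjusted p of 0.0090 to 0.032 when 1 library was left out. The gene lies within Mcph1 on the opposite strand, which had 0.400 FPKM in Flox mice and 0.384 FPKM in HepKO mice. Whether reads were assigned by strand was not given in the sources used here. That limit also holds for Stab1 and Clec4g. Stab1 shares 112 bases with Nt5dc2 (2.7 and 2.2 FPKM in Flox and HepKO mice), an opposite-strand gene. Clec4g overlaps Gm16553 (0.390 and 0.0532 FPKM) on the opposite strand. Within libraries, the ratio of Angpt2 to Kdr was 0.425 to 1.22 in Flox and 7.01 to 8.44 in HepKO livers.

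Apln encodes apelin, a peptide ligand made by sprouting endothelial tip cells (ENSMUSG00000037010, chromosome X, 48025146 to 48034853). It had 0.0371, 0.428 and 0.192 FPKM in Flox mice and 0.426, 0.924 and 1.24 FPKM in HepKO mice, so HepKO replicate 1 fell just below the highest Flox value. The log2 fold change of 0.60 (SE 0.20, 95% interval 0.12 to 1.08) missed the threshold (limma adjusted p = 0.080), and passed without HepKO replicate 1 (0.044). Without HepKO replicate 2 or 3 it did not reach the minimum level for a test. At these levels, the fold between group means is poorly determined. In the authors' deposited table the q-value of Apln was 0.030. The authors' deposited table otherwise gave the same calls at 0.05 for the 10 genes, with q-values of 0.0082 for Stab1, 0.0061 for Pecam1 and 0.12 for Clec4g.

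The order of the 10 levels, per length, changed with genotype. In the Flox livers Clec4g held rank 1 and Lyve1 rank 2 in each library, and the groups of values for these 2 genes did not overlap. Below them, Fcgr2b, Cdh5, Stab1, Pecam1, Stab2, Kdr and Angpt2 followed with means from 4.07 down to 1.83 FPKM, and no neighbours in that order were separated by their spread. In the HepKO livers Lyve1 held rank 1, Cdh5 rank 2 and Clec4g rank 3 in each library, with means of 14.2, 11.8 and 7.85 FPKM, whose neighbours overlapped. Angpt2 moved from rank 6 or 9 in the Flox libraries to rank 4 in every HepKO library. Kdr moved from rank 7 to 9 down to rank 9 or 10. The summed level of the 10 was 35.0 to 39.7 FPKM in Flox mice and 47.0 to 65.6 FPKM in HepKO mice.

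**Figure D3:**
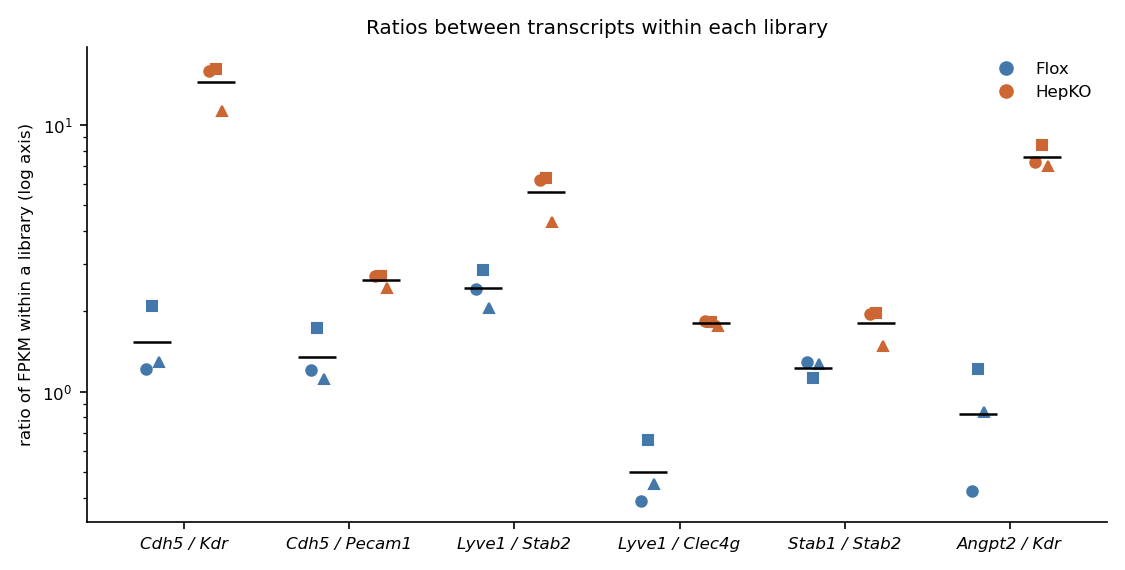
Ratio of FPKM between pairs of transcripts within each library (y axis, log scale), with symbols for replicates 1 (circle), 2 (square) and 3 (triangle) and black lines for the group mean. The groups separate for all 6 pairs shown; Cdh5 / Kdr lies between 1.22 and 2.09 in Flox and between 11.3 and 16.3 in HepKO livers, and Angpt2 / Kdr between 0.425 and 1.22 and between 7.01 and 8.44.

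For each transcript 10687 genes (mean FPKM of 1 or more) were ranked by likeness, as the root-mean-square difference of centred log2(FPKM + 1) levels over the 6 libraries. Nearest to Pecam1 was Rgs5, a pericyte-enriched regulator of G protein signalling, at 0.029, against the 0.34 by which Pecam1 itself varied about its mean. Nearest to Stab1 was Ets1, a transcription factor gene active in endothelium and lymphocytes, at 0.055 against 0.28. Cdh5 lay nearest to Basp1, at 0.082 against 0.79. Next to it were Ero1l, an endoplasmic reticulum oxidase gene, and the cytokine gene Il1b. Angpt2 had no neighbour closer than Rnf39 at 0.12, followed by Nipal1 and the receptor tyrosine kinase feedback gene Spry2. Kdr lay nearest to Coasy, a coenzyme A synthesis gene, at 0.074 against 0.44, and Lyve1 to 2310034O05Rik at 0.064 against 0.59. Clec4g lay nearest to Rps18-ps3, at 0.063 against 0.33, followed by Apip and then Ccm2l. Ccm2l, an endothelial gene of the cerebral cavernous malformation pathway, had 1.49 FPKM in Flox mice and 0.699 FPKM in HepKO mice. Fcgr2b lay nearest to Glg1, at 0.10 against 0.29, followed by Icam2, an endothelial adhesion gene.

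The ligands and receptors around Kdr, Angpt2 and Apln gave a mixed picture. Of 30 other vessel-signalling genes, 23 were tested, of which 6 rose, 1 fell and 16 did not pass (30.4% called, against 20.3% of all genes). Their median log2 fold change was 0.26, but -0.05 over the 17 that reached 0.5 FPKM in both groups, of which 4 rose and 1 fell. Of all 11822 genes that reached this minimum in both groups, 938 rose and 1322 fell, with a median of -0.07. Later counts of genes at this minimum in both groups stand beside the same values. Vegfa, the ligand of the Kdr receptor, had 28.0, 37.7 and 33.8 FPKM in Flox mice and 76.6, 88.7 and 81.7 FPKM in HepKO mice. Its levels rose 2.48-fold (limma adjusted p = 0.0018) as those of Kdr fell, and the within-library ratio of Vegfa to Kdr went from 11.5 to 19.2 in Flox to 92.1 to 112 in HepKO livers. The other VEGF receptor genes did not pass. Flt1, which encodes VEGF receptor 1, had 0.478 and 0.636 FPKM (adjusted p = 0.51), and Flt4, which encodes VEGF receptor 3, 1.94 and 1.85 FPKM in Flox and HepKO mice (adjusted p = 0.83). The coreceptor gene Nrp1 had 3.88 and 3.43 FPKM (adjusted p = 0.68).

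Receptors and partners of angiopoietin did not pass. Tek, which encodes the angiopoietin receptor TIE2, had 1.59, 1.03 and 1.91 FPKM in Flox mice and 0.549, 1.07 and 1.16 FPKM in HepKO mice (limma adjusted p = 0.20). Tie1, its coreceptor, had 1.84 ± 0.018 and 1.39 ± 0.083 FPKM (SD, n = 3; adjusted p = 0.10), and Ptprb, the phosphatase that restrains TIE2, 1.63 and 1.13 FPKM (adjusted p = 0.12). Angpt1, the activating ligand, and Aplnr, the apelin receptor, had at most 0.0672 and 0.051 FPKM in any library and were not tested. The ratio of Angpt2 to Tek ran from 0.655 to 2.32 in Flox and from 4.42 to 11.1 in HepKO livers.

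Among the vessel-signalling genes that rose, Adm, a vasodilator peptide gene, went from 5.96 to 46.7 FPKM (adjusted p = 0.0032). Edn1, which encodes the vasoconstrictor endothelin-1, went from 0.164, 0.0857 and 0.0486 FPKM to 3.68, 3.40 and 2.21 FPKM (adjusted p = 0.0011). Cxcr4, a chemokine receptor gene of leukocytes and endothelium, had 0.299 FPKM in Flox mice and 3.79 FPKM in HepKO mice (adjusted p = 0.016, and 0.059, 0.051 and 0.057 without Flox replicate 2, HepKO replicate 1 or HepKO replicate 2). Both Edn1 and Cxcr4 were tested only through their HepKO level. Esm1, a tip cell gene, rose from 0.812 to 3.55 FPKM (adjusted p = 0.0066). Cxcl12, the ligand of that chemokine receptor, was the gene that fell, from 23.5 to 13.6 FPKM (adjusted p = 0.0075). Jag1, a Notch ligand gene, rose from 0.704 to 1.51 FPKM (adjusted p = 0.044), a call lost when any single library other than HepKO replicate 2 was left out (0.077 to 0.12).

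Other endothelial genes did not move as 1 block. Of 26 other sinusoidal genes 19 were tested, of which 2 rose, 1 fell and 16 did not pass (15.8% called, against 20.3% of all genes). Their median log2 fold change was -0.05. Among the 18 that reached 0.5 FPKM in both groups, 2 rose and 0 fell. Without Flox replicate 2 or 3 or HepKO replicate 2, 1 of these 3 calls was left in number. Bmp10, which encodes a ligand of the endothelial receptor ALK1 and is known in liver also from stellate cells, rose from 0.521 to 2.03 FPKM (adjusted p = 0.0027). Ctsl, a lysosomal protease gene that most liver cells express, rose from 124 to 190 FPKM (adjusted p = 0.018, lost without Flox replicate 2 or 3 or HepKO replicate 2 at 0.067 to 0.072). Plxnc1 fell from 0.963 to 0.470 FPKM (adjusted p = 0.049, and 0.052 to 0.14 with 1 library left out). Closer to Clec4g and Stab2 in their restriction to sinusoidal cells, Oit3 had 4.10, 3.42 and 5.35 FPKM in Flox mice and 1.95, 2.96 and 2.63 FPKM in HepKO mice (adjusted p = 0.059). Dnase1l3, a secreted DNase gene, had 4.56 and 2.81 FPKM (adjusted p = 0.074), Gata4, the transcription factor gene of sinusoidal identity, 4.45 and 3.54 FPKM (adjusted p = 0.25), and Gpr182 5.05 and 4.28 FPKM (adjusted p = 0.27). Mrc1, the mannose receptor gene, had 2.46 and 2.13 FPKM (adjusted p = 0.48). Clec1b had 1.36 and 2.19 FPKM and did not pass (adjusted p = 0.070).

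Of 26 pan-endothelial genes 24 were tested, of which 4 rose and 1 fell, with a median of 0.05. The share called was 20.8%, close to the 20.3% of all genes. Among the 21 that reached 0.5 FPKM in both groups, 3 rose and 1 fell, with a median of -0.04; Sox7 was among those tested only through a HepKO level above that minimum. The count of 5 became 3 without Flox replicate 2 or HepKO replicate 1 and 2 without HepKO replicate 2. Cd93, an adhesion receptor gene of endothelium and myeloid cells, had 1.83, 2.07 and 2.34 FPKM in Flox mice and 10.98, 10.9 and 7.70 FPKM in HepKO mice, a 4.74-fold rise (adjusted p = 0.0011). Esam, another junction gene, rose from 3.95 to 7.35 FPKM (adjusted p = 0.010). Other junction genes of these lists did not pass: F11r had 42.6 and 45.8 FPKM (adjusted p = 0.55), Cldn5 4.19 and 3.01 FPKM (adjusted p = 0.26) and Jam2 1.44 and 2.38 FPKM (adjusted p = 0.10). Sox7 and Robo4 also rose, to 1.06 and 1.77 FPKM (adjusted p = 0.029 and 0.035). Sox7 was lost without Flox replicate 1 or 2 or HepKO replicate 1 or 2 (0.068 to 0.087), and Robo4 without any single library other than HepKO replicate 3 (0.077 to 0.11). Mmrn2, a matrix ligand gene of Cd93 in endothelium, fell from 1.38 to 0.562 FPKM (adjusted p = 0.014, and 0.055 without HepKO replicate 2). The 2 most abundant genes of that list, Aqp1 (18.1 and 14.0 FPKM) and S1pr1 (17.7 and 12.7 FPKM), did not pass (adjusted p = 0.22 and 0.20). Sox18 had 3.36 and 1.86 FPKM (adjusted p = 0.11).

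A list of 19 genes covered continuous capillaries, larger veins and basement membrane, which sinusoids are known to gain when they lose their pores. Of these 14 were tested, of which 4 rose and 0 fell (28.6% called, against 20.3% of all genes). Their median was 0.41, and 2 rose without HepKO replicate 2. Among the 11 that reached 0.5 FPKM in both groups, which leaves out Lamb1, 3 rose (median 0.39). Thbd, the thrombomodulin gene, rose from 1.42, 1.64 and 1.72 FPKM to 11.03, 12.1 and 7.08 FPKM (adjusted p = 0.0013). Col4a2, a basement membrane collagen gene, rose from 4.05 to 8.77 FPKM (adjusted p = 0.0060). Cd9 rose from 12.8 to 21.4 FPKM (adjusted p = 0.012, and 0.051 without HepKO replicate 2), and the laminin gene Lamb1 from 0.450 to 1.03 FPKM (adjusted p = 0.023, lost without Flox replicate 1, 2 or 3 or HepKO replicate 2 or 3 at 0.053 to 0.080). Plvap, of the diaphragms that close endothelial pores and the most abundant of that list, had 19.3 and 29.6 FPKM (adjusted p = 0.061). Too low to test in Flox and HepKO mice were Cd34 (0.243 and 0.543 FPKM), Vwf (0.299 and 0.422), Emcn (0.497 and 0.458) and Lama4 (0.201 and 0.121). The part of other cell types in the levels of this list was not tested.

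Of 20 adhesion and coagulation genes 16 were tested, of which 6 rose and 0 fell, with a median of 0.37. The share called was 37.5%, against 20.3% of all genes. Among the 13 that reached 0.5 FPKM in both groups, which leaves out Edn1, 5 rose (median 0.42). Thbd and Edn1 are shared with the lists above. Procr, the endothelial protein C receptor gene, rose 3.20-fold, from 5.51 to 17.7 FPKM (adjusted p = 0.010). F3, the tissue factor gene, rose from 1.06 to 3.42 FPKM (adjusted p = 0.0085) and Klf4 from 0.527 to 1.72 FPKM (adjusted p = 0.0062). The leukocyte adhesion genes Icam1 (6.23 and 6.53 FPKM, adjusted p = 0.82) and Vcam1 (1.04 and 1.71 FPKM, adjusted p = 0.062) did not pass, nor did the flow-responsive Klf2 (2.78 and 3.62 FPKM, adjusted p = 0.21).

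**Figure D4:**
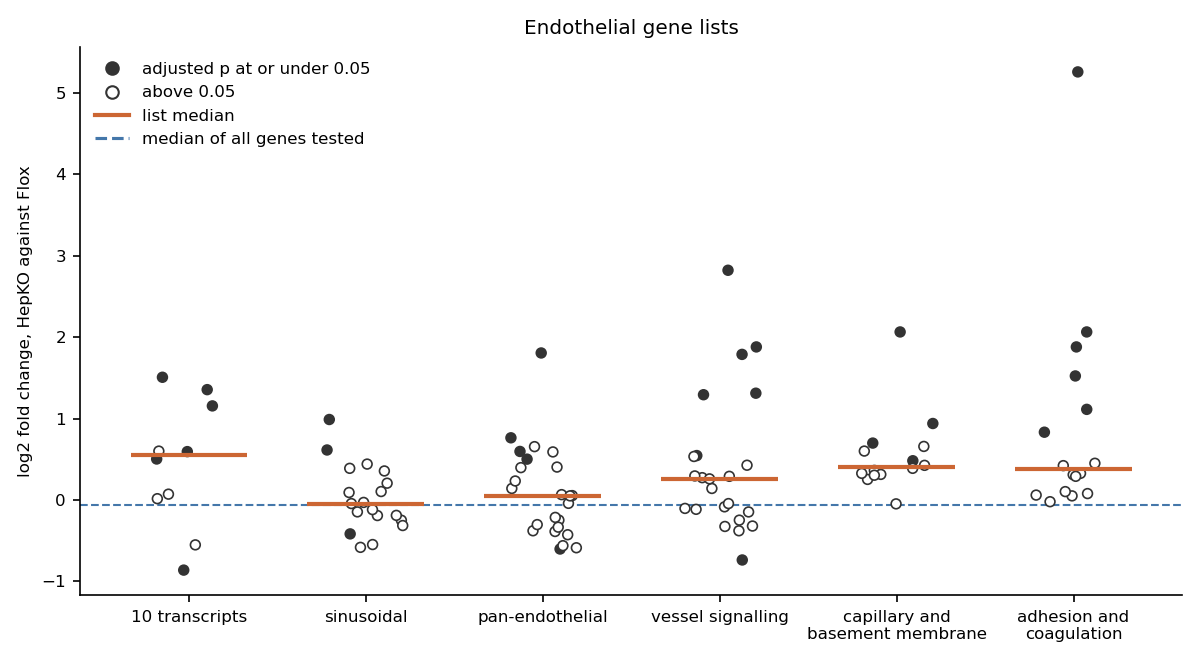
Log2 fold change, HepKO against Flox, on the log2(FPKM + 1) scale (y axis) of every tested gene in 6 endothelial lists; filled points have an adjusted p at or under 0.05, orange lines give each list's median and the dashed line the median of all genes tested, -0.06. The sinusoidal and pan-endothelial lists have medians of -0.05 and 0.05, and the vessel-signalling, capillary and adhesion lists 0.26, 0.41 and 0.37. The 10 transcripts, chosen with earlier results of these data known, have a median of 0.55, or 0.50 without Apln.

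Several of the 10 transcripts are also made by blood cells and macrophages, and markers of some of those cells moved with genotype. Of 16 Kupffer cell and macrophage genes, 15 were tested, of which 4 rose and 0 fell (26.7% called, against 20.3% of all genes). Their summed level was 133 to 215 FPKM in Flox mice and 224 to 276 FPKM in HepKO mice. Among the 13 that reached 0.5 FPKM in both groups, which leaves out the called genes Itgam and Ccr2, 2 rose. Lyz2 rose from 25.3 to 50.3 FPKM (adjusted p = 0.0045), Marco from 13.0 to 39.8 FPKM (adjusted p = 0.012) and Itgam from 0.283 to 2.73 FPKM (adjusted p = 0.00096), while Clec4f, a defining Kupffer cell gene, had 12.6 and 8.60 FPKM (adjusted p = 0.29). Of 8 neutrophil genes 7 were tested and 7 rose, but 3 of these were tested only through their HepKO level, which leaves 4 rises among the 4 that reached 0.5 FPKM in both groups. The sum over the list was 10.5 to 20.2 FPKM in Flox mice and 132 to 158 FPKM in HepKO mice. Ly6g was too low to test, at 0 in every Flox library and at 0.137, 0 and 0.235 FPKM in HepKO mice. Of 5 platelet genes, 4 were tested and 2 rose (50% called, against 20.3% of all genes, and 2 of the 3 at 0.5 FPKM in both groups). Their sum was 2.08 to 4.52 FPKM in Flox mice and 8.55 to 14.0 FPKM in HepKO mice. Pf4, a platelet chemokine gene, rose 4.03-fold (adjusted p = 0.0043). The other platelet gene that rose, Ppbp (adjusted p = 0.027), was lost without Flox replicate 2 or HepKO replicate 1 or 2 (0.070 to 0.088). The part of these cells in the levels of Stab1, Lyve1, Pecam1 and Fcgr2b was not tested. All 6 B cell genes were too low to test, with a sum of 0.298 to 0.781 FPKM in Flox mice and 0.365 to 0.701 FPKM in HepKO mice, and Ms4a1 was at 0 in every library.

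Markers of lymphatic vessels, stellate cells and hepatocytes were counted in the same way. Of 6 lymphatic genes 5 were tested and 1 rose, Pdpn, from 0.197 to 0.863 FPKM (adjusted p = 0.0073). Pdpn was tested only through its HepKO level, and among the 4 lymphatic genes that reached 0.5 FPKM in both groups 0 rose. Prox1, the defining lymphatic transcription factor gene, which hepatocytes also express, had 10.2 and 7.82 FPKM (adjusted p = 0.070). The lymphatic sum, most of it from Prox1, was 13.7 to 14.6 FPKM in Flox mice and 12.2 to 13.5 FPKM in HepKO mice. Of 10 stellate cell genes 9 were tested and 3 rose (33.3% called, against 20.3% of all genes). Their sum was 38.3 to 55.6 FPKM in Flox mice and 54.5 to 72.6 FPKM in HepKO mice. Acta2, the smooth muscle actin gene, rose from 2.81 to 7.16 FPKM (adjusted p = 0.012). Dcn, the most abundant of the list, rose from 18.6 to 33.4 FPKM (adjusted p = 0.038) and Rgs5 from 5.72 to 8.95 FPKM (adjusted p = 0.043). Both of these calls were lost without any single library other than HepKO replicate 3 (0.055 to 0.13). Colec11 had 11.4 FPKM in Flox mice and 6.35 FPKM in HepKO mice and did not pass (adjusted p = 0.076). Of 10 hepatocyte genes, 1 rose and 3 fell (40% called, against 20.3% of all genes). Their sum was 43586 to 51164 FPKM in Flox mice and 48237 to 52963 FPKM in HepKO mice.

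**Figure D5:**
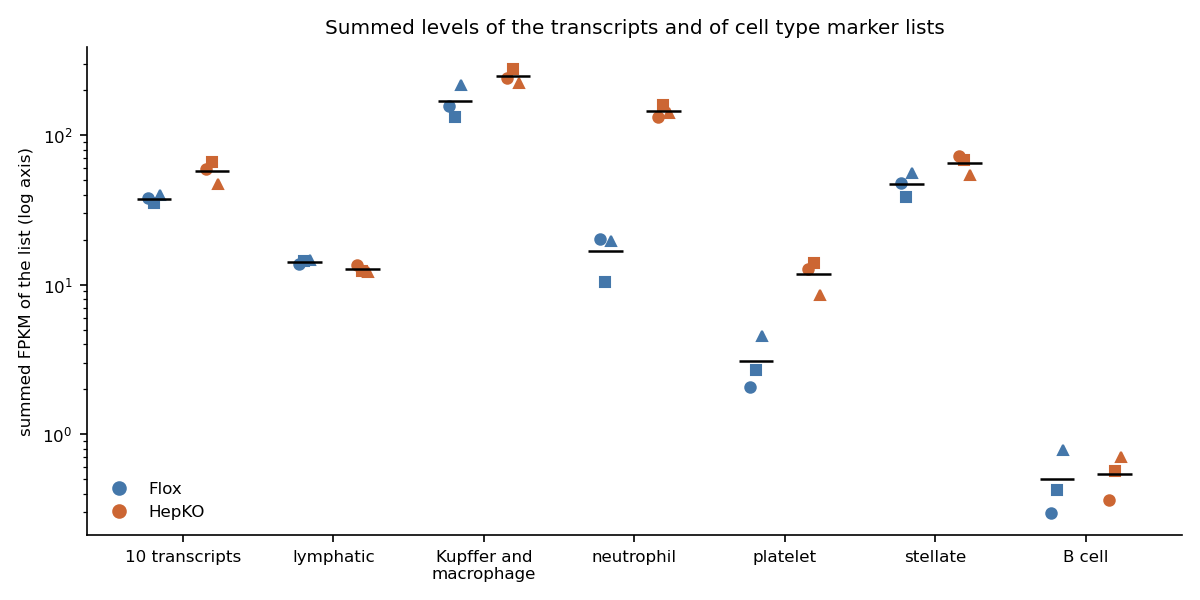
Summed FPKM (y axis, log scale) of the 10 transcripts and of 6 cell type marker lists in each library, with symbols for replicates 1 (circle), 2 (square) and 3 (triangle) and black lines for the group mean. The neutrophil sum separates most, 10.5 to 20.2 in Flox against 132 to 158 in HepKO livers. The lymphatic sums lie close without overlap (13.7 to 14.6 and 12.2 to 13.5), and the B cell sums overlap.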

How the data were processed

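RNA of 6 liver samples was sequenced, 3 Flox and 3 HepKO, per the labels. The deposited table holds FPKM computed by the authors, per the file headers; its p-value and q-value columns also come from the authors, by a test not given in the sources used here. Processing notes of the submitters name the tools edgeR, DESeq2, StringTie 1.3.4d, HISAT2 2.0.4 and cutadapt 1.9 without roles. The genome build used was not given in the sources used here. Identifiers of 28476 genes were looked up, and GENCODE M21 (GRCm38) holds 28396 and 25619 have the same coordinates there; this holds for 9 of the 10 transcripts and not for Clec4g. Coordinates are those of the deposited table. The labels do not say that the 6 samples came from separate animals, so the p-values cover only the spread of these libraries, which may be technical.

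Count tests do not apply to FPKM, and read depth is unknown. The 12712 genes whose mean over 6 libraries reached 0.5 FPKM were tested on log2(FPKM + 1) with limma 3.58.1 in R 4.3.3, fitting genotype alone with a trended prior variance, two-sided, adjusted by Benjamini-Hochberg over all of them at 0.05. Adjusted p-values in the text are from this test unless the authors' table is named. The log2 scale with a pseudocount of 1 understates changes of low genes; folds are ratios of group mean FPKM. With 3 against 3 libraries an exact permutation test cannot go below p = 0.10 and was not used. Medians of lists stand beside the median of all genes tested, and no set test was run. Tables and plots used Python 3.11.15, pandas 2.3.3 and matplotlib 3.10.9. The test was also run on simulated data, drawn as independent normal values on the log2(FPKM + 1) scale. Such data meet the assumptions of the test, so they do not check it for real FPKM.

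The 10 transcripts and the gene lists were chosen with earlier results of these data known. Genes named are the 10, Nedd4, and from each list the 2 most abundant tested genes and up to 3 with the largest changes among called genes without overlap between groups, besides the 3 genes most like each transcript. Of these, those that add a measured contrast are described. 1 gene that this rule names is not reported here. Other named genes were chosen after their values were seen: Flt1, Nrp1, Tek, Tie1, Ptprb, Angpt1, Aplnr, Esm1, Cxcl12, Jag1, Oit3, Dnase1l3, Gata4, Gpr182, Mrc1, Clec1b, Sox7, Sox18, Robo4, Lamb1, Procr, F3, Klf2, Klf4, Icam1, Vcam1, Fcgr3, Clec4f, Cldn5, Jam2, Ly6g, Ms4a1, Wnt2, Wnt9b, Bmp2, Bmp6, Rspo3, Egfl7 and Ecscr. So were Cd34, Vwf, Emcn, Lama4, Eng and Ccr2, and the pairs whose ratios are given. The longest transcripts were compared for shared sequence with BLAST, at 95% identity over at least 100 bases. Alternatives were pseudocounts of 0.1 and 0.5, no filter and a filter of 1 FPKM, 3 rescalings, no variance trend, array weights, the replicate number as a block, and omission of 1 library at a time.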

Additional observations from a re-analysis of the deposited data

How the results depend on the processing

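Over 16 alternatives, Cdh5, Angpt2, Lyve1 and Kdr kept their direction and their call, and Stab2 kept its direction without a call (log2 fold change 0.03 to 0.12). Stab1 and Pecam1 lost their call in 7 each. Clec4g passed in 2 (a common total FPKM, and without Flox replicate 2). Apln passed in 2 of the 13 that could test it (array weights, and without HepKO replicate 1). Fcgr2b changed sign with a common total FPKM (-0.034) and when Flox replicate 2 (-0.16), HepKO replicate 1 (-0.11) or HepKO replicate 2 (-0.061) was left out, with a range of -0.16 to 0.22. The other sign changes were of genes near 0: Aass (-0.030, up to 0.53), Flt4 (0.038 and 0.022), Alb (-0.0014 and -0.050), Nrp1 (0.0082 with array weights and 0.075, down to -0.22), Icam1 (-0.022 with array weights, -0.13 and -0.024, up to 0.21) and Bmp6 (-0.033, up to 0.20), the others on leaving out 1 library or, for the first value of Alb, with a common total FPKM.

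With 1 library left out, all calls numbered 1281 to 2257 against 2583 (669 to 1035 higher, 612 to 1303 lower), where leaving out Flox replicate 2 gave 1331, Flox replicate 3 1483, HepKO replicate 1 1616 and HepKO replicate 2 1281. Of the 10 transcripts 4 to 6 were called (3 to 5 higher, 1 to 2 lower). The called genes numbered 1 to 2 of the sinusoidal list, 2 to 6 of the pan-endothelial, 5 to 7 of the vessel-signalling, 2 to 5 of the capillary and 6 to 7 of the adhesion list. The summed level of the 10, examined this way after seeing the data, was higher in HepKO than in Flox livers by 15.6 to 24.9 FPKM, and Nedd4 had a log2 fold change of -1.07 to -0.99.

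No low-value filter gave 899 lower genes, 3 of the 10 transcripts higher and 3 pan-endothelial calls, where more genes were tested. A filter of 1 FPKM gave 3 pan-endothelial calls. Array weights gave 2174 lower genes, 11 pan-endothelial and 7 capillary calls. A common total FPKM gave 2 of the 10 lower. The replicate block gave 1551 calls (776 higher, 775 lower), 3 of the 10 higher, 1 sinusoidal and 3 pan-endothelial calls. Same-numbered libraries did not deviate together (correlations of deviations 0.0029, 0.0021 and -0.025), so the numbers were not taken to pair them. The cause of the other shifts was not tested.

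With the mean of the pan-endothelial list in place of that of Pecam1 and Cdh5 as denominator, log2 ratios became 0.52 for Stab1, 1.15 for Lyve1 and 0.66 for Pecam1 (from -0.77, -0.11 and -0.65). They became -0.013 for Stab2, -0.76 for Clec4g, -0.088 for Fcgr2b, -1.63 for Kdr, 1.63 for Cdh5 and 1.63 for Angpt2 (from -1.26, -2.04, -1.44, -2.91, 0.35 and 0.36), since Pecam1 and Cdh5 rose themselves. Depth is unknown, which limits what can be said of Apln and of other transcripts under 1 FPKM.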

Other observations

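Liver endothelial cells are known to release growth factors that act on hepatocytes, and 5 such genes were examined, of which the 3 that could be tested (Rspo3, Bmp2 and Bmp6) did not pass. Rspo3, an enhancer of Wnt signalling, had 1.56, 0.953 and 1.87 FPKM in Flox mice and 1.69, 2.50 and 2.42 FPKM in HepKO mice (limma adjusted p = 0.18). Bmp2 had 2.21 ± 0.65 and 1.79 ± 0.35 FPKM (SD, n = 3; limma adjusted p = 0.49), and Bmp6, an inducer of hepcidin, 0.999 ± 0.33 and 1.13 ± 0.13 FPKM (adjusted p = 0.66). Wnt2 and Wnt9b, the Wnt ligand genes of central vein and sinusoidal endothelium, were too low to test. Wnt9b had 0.186, 0.185 and 0.0953 FPKM in Flox mice and 0, 0.070 and 0.0491 FPKM in HepKO mice, and Wnt2 0.259, 0.0697 and 0.439 FPKM in Flox mice and 0.0570, 0.254 and 0.510 FPKM in HepKO mice.

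Further endothelial genes lay just above the threshold with groups that did not overlap. Ecscr, which encodes an endothelial surface protein, had 1.33, 1.40 and 1.75 FPKM in Flox mice and 3.52, 3.52 and 1.93 FPKM in HepKO mice (adjusted p = 0.055, and 0.010 without HepKO replicate 3). HepKO replicate 3 was also the lowest HepKO library for Cdh5, Lyve1, Pecam1, Stab1, Angpt2, Clec4g, Fcgr2b and Kdr. For Stab2 and Apln it was the highest HepKO library. Egfl7, a secreted endothelial gene, had 4.73, 6.17 and 8.50 FPKM in Flox mice and 9.70, 11.5 and 8.92 FPKM in HepKO mice (adjusted p = 0.081, and 0.038 without Flox replicate 3).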
